A study of Homo sapiens with 12 samples.

Results

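The 9 genes described here, CDKN1A, BTG2, CCNG1, GADD45A, GADD45B, GADD45G, PLK2, PLK3 and SFN, are targets of p53 or close relatives of such targets, and all have been linked to arrest of the cell cycle after DNA damage. They were taken by symbol from a table of 26334 genes counted in 12 RNA-seq libraries of A549 cells, an established human lung adenocarcinoma line. All cells had been infected with a lentivirus and selected for 4 days in 1 µg/ml puromycin. The virus carried either a control hairpin RNA (shControl) or a hairpin directed at RNF113A (shRNF113A), a zinc finger protein of the spliceosome. Each pool was left untreated or given Cisplatin, a platinum drug that crosslinks DNA, for 20 h at 25 µg/ml according to the sample labels. The study's methods state its Cisplatin doses in another unit, so the dose of these libraries is given only as labelled. This made 4 conditions with 3 biological replicates each: shControl untreated, shControl with Cisplatin, shRNF113A untreated and shRNF113A with Cisplatin. The hairpin to RNF113A is compared with 1 control hairpin in pools of infected cells.

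When DNA is damaged, the transcription factor p53 is stabilised and binds a 20-base element made of a pair of half-sites, each with a core of C, a pair of A or T bases, and G. CDKN1A encodes p21, which inhibits cyclin-dependent kinases and holds cells in G1. SFN encodes 14-3-3 sigma, which keeps cyclin B and CDK1 out of the nucleus, and GADD45A is a small stress protein that binds CDK1 and PCNA. The other members act beside them: BTG2 is an antiproliferative adaptor of the mRNA deadenylase complex, CCNG1 encodes cyclin G1, and PLK2 and PLK3 are stress-responsive kinases of the polo family.

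The p53-like elements nearest to a perfect match within 2500 bases on either side of each gene's start are shown because p53 is what links the members. The genome was read in build GRCh37, on the plus strand, with gene starts from the deposited Gencode annotation, and the 4-base cores are in capitals. An element had to hold C and G at the ends of both cores and no bases between the half-sites. Mismatches to the consensus (3 purines, the core, 3 pyrimidines, read the same on both strands) were counted at the other positions. Distances run from the gene's start, the outer start of its annotated span, to the element's centre. Which start the transcripts of these cells used was not determined. The CDKN1A element, at chr6:36644226-36644245, was 69 bases upstream of the start and had 2 mismatches. That of BTG2, at chr1:203272770-203272789, was 1839 bases upstream with 2 mismatches. The CCNG1 element, at chr5:162864932-162864951, lay in an intron 367 bases downstream with 1 mismatch, and that of GADD45A, at chr1:68152458-68152477, in an intron 1724 bases downstream with 1 mismatch. PLK2 had an element with 0 mismatches at chr5:57758101-57758120, 2024 bases upstream.
CDKN1A: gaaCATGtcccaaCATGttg
BTG2: acgCATGttcaggCATGcat
CCNG1: gcaCAAGcccaggCTAGtcc
GADD45A: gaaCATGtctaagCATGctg
PLK2: gggCAAGtccaggCATGttt

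The best elements of these 5 genes were of a kind that few genes hold. An element with 0 mismatches was found near 0.0507% of 19708 protein-coding genes, 1 with at most 1 mismatch near 0.462% and 1 with at most 2 near 3.74%. Among the members, 6 of 9 had an element with at most 2 mismatches, the sixth being GADD45B, where it lay in an exon, and among 28 other p53 targets 12 did. The best match of SFN had 3 mismatches, which 21.1% of genes equalled or bettered, and those of GADD45G and PLK3 had 4, equalled or bettered by 56.2%. The members and the 28 other genes were chosen as linked to p53, and the elements shown are among those with the fewest mismatches. Their shares are therefore no independent support. A match is a description of these letters, and p53 binding was not measured here.

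The libraries held 33859097 to 56071514 read pairs, of which 26220526 to 45721152 were counted on the gene's strand. RNF113A mRNA itself had 743, 707 and 725 normalized counts in the shControl untreated libraries and 555, 572 and 612 in the shRNF113A untreated libraries (log2 fold change -0.31 ± 0.09 SE, adjusted p = 0.0247). With Cisplatin it had 1144, 1047 and 997 against 908, 855 and 1047, a difference that missed the threshold (-0.14 ± 0.09, adjusted p = 0.233). The groups thus overlapped under Cisplatin, and the mRNA was lower by a small margin in untreated cells. Among 10 markers of A549 or epithelial cells, none had under 10 reads in every library of a condition. They ranged widely, with KRT8 at 80477 to 283774 reads per library, EPCAM at 139 to 3570 and KRT19 at 27 to 173. Of 10 markers of leukocytes, endothelium and fibroblasts, CD3E and DCN reached at most 1 read in any library, and CD68 (1009 to 1977) and COL1A1 (108 to 1368) were the most abundant. The summed normalized counts of those 10 (reads divided by size factors) were 1361 to 1619 in treated shControl cells and 2239 to 2854 in treated shRNF113A cells, so they moved with depletion there, and their part in the results on depletion was not tested. The summed normalized counts of the A549 and epithelial markers were 460500 to 598000 and 392100 to 426400 in the same groups. In untreated cells they were higher, at 857000 to 1217000 with shControl and 921800 to 988900 with shRNF113A. With Cisplatin 7 of these 10 markers fell in shControl cells (55% of all genes changed) and 8 in shRNF113A cells (60.2%), and 0 rose. The part of this in the results on Cisplatin was not tested. With depletion, 2 of the 10 A549 and epithelial markers rose and 4 fell in untreated cells, where 1971 of all genes rose and 2236 fell. In treated cells 1 of them rose and 5 fell, where 3238 of all genes rose and 3348 fell. Sums that lie close can thus hide opposite changes of single markers, whose part in the results on depletion was not tested. Replicate 2 of the shControl cells stood apart from replicates 1 and 3 for several members in both treatments, so results that rest on it are given with and without it. Leaving out both of its libraries was chosen after seeing the data. The share of all genes that passed under that omission was not counted. In such bulk libraries, fewer cells expressing a gene and less RNA per cell cannot be told apart.

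Cisplatin raised 7 of the 8 members that could be tested in shControl cells, by 2.12-fold for CCNG1 to 21.5-fold for BTG2, and all 8 in shRNF113A cells, by 1.64-fold for GADD45B to 13.2-fold for BTG2. GADD45B was the exception in shControl cells, and the other 7 were the ones past 2-fold with either hairpin. GADD45G was nearly silent in these cells. A gene was called when its Benjamini-Hochberg adjusted p in edgeR's quasi-likelihood test was under 0.05 over 15352 genes and its change was at least 2-fold, and "rose" or "fell" below means an adjusted p under 0.05. By that rule 7 of 8 members were called in shControl cells, where 19.8% of all tested genes were called, and 7 of 8 in shRNF113A cells, where 23.1% were. Over both hairpins together, in the additive model, 7 of 8 members were called against 21.5% of all genes. By the adjusted p alone, 7 members rose in shControl cells and 0 fell, where 55% of all genes changed, 4298 up and 4152 down. In shRNF113A cells 8 rose, where 60.2% of all genes changed, 4974 up and 4268 down. The median log2 fold change of the 8 members was 2.43 in shControl and 2.35 in shRNF113A cells, against -0.005 and 0.056 for all genes tested. Leaving out any 1 library left 7 members called in each case.

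**Figure D1:**
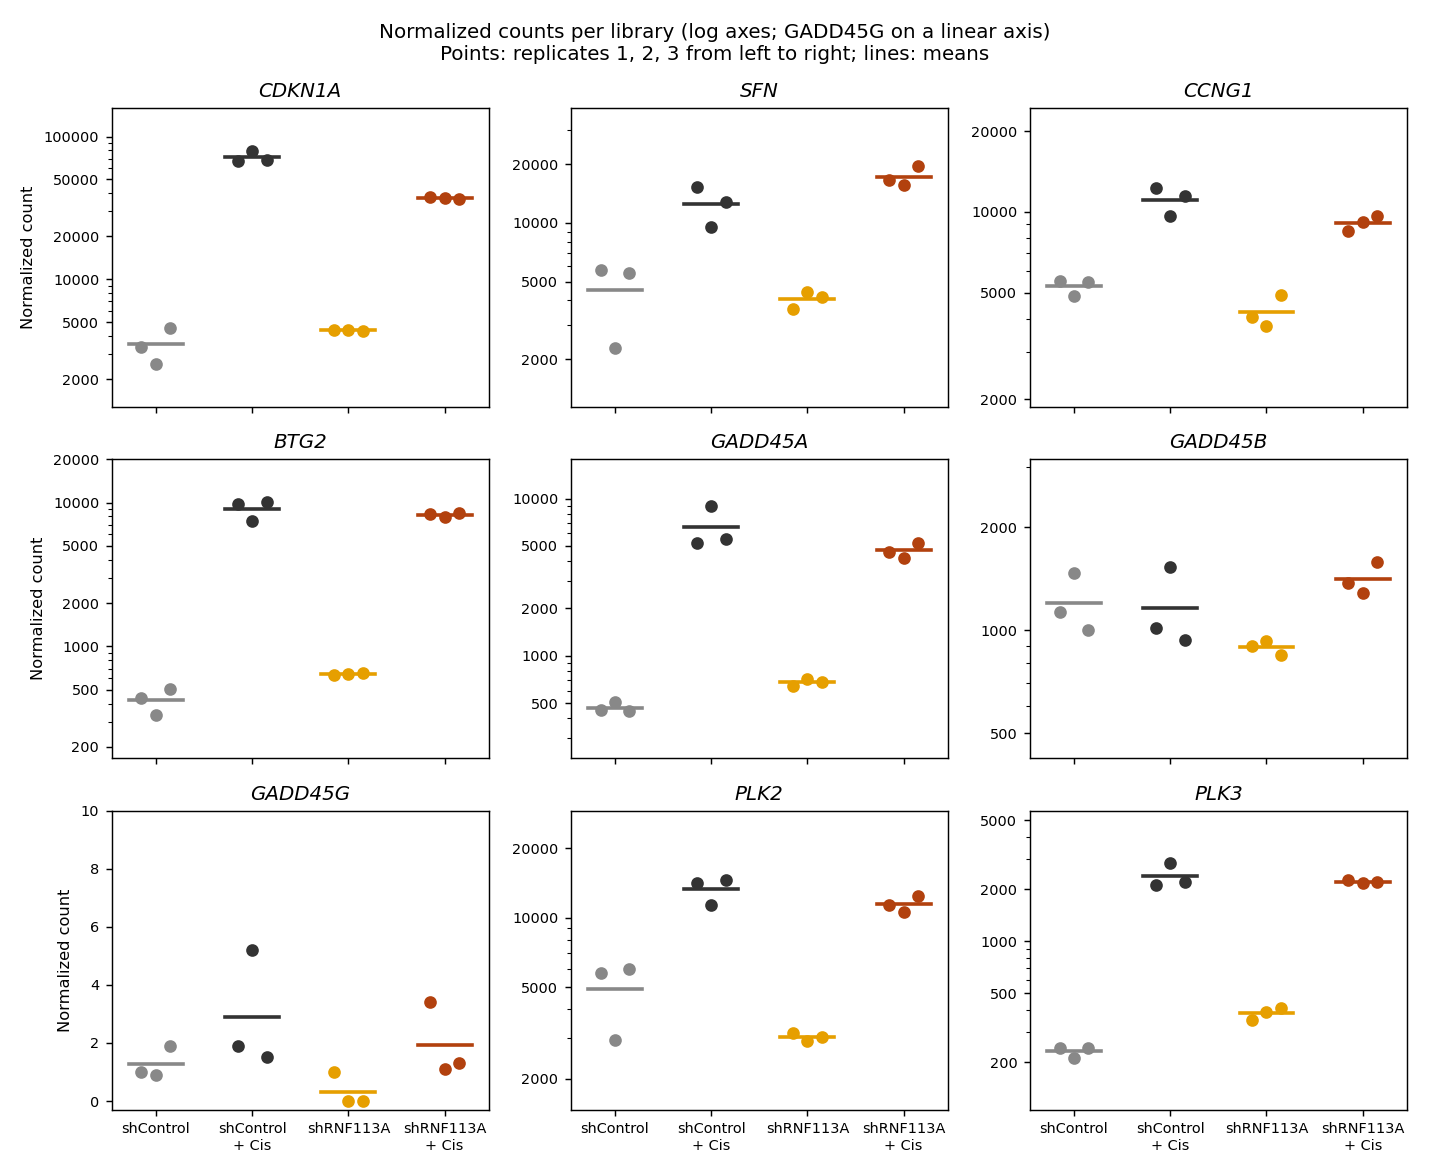
Normalized counts (reads divided by median-ratio size factors) of the 9 members in each of the 12 libraries, on log axes except for GADD45G, with 3 replicates per condition as points and their means as lines. Cisplatin-treated libraries lie above untreated ones with the same hairpin for every member but GADD45B and GADD45G, and CDKN1A with Cisplatin is at 36344 to 37878 with shRNF113A against 67363 to 79734 with shControl.

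CDKN1A was the most abundant member after Cisplatin. It had 3358, 2562 and 4578 normalized counts in untreated shControl cells and 67363, 79734 and 68238 with Cisplatin. In shRNF113A cells it had 4440, 4440 and 4322 untreated and 37878, 37305 and 36344 with Cisplatin. The 3 depleted, treated libraries were thus all below the 3 treated control libraries, while the untreated groups overlapped. The fitted rise was 20.7-fold in shControl cells (log2 4.37 ± 0.18 SE, adjusted p = 2.8e-09) and 8.73-fold in shRNF113A cells (3.13 ± 0.17, adjusted p = 2.4e-08).

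BTG2 started from a low level, and its fitted rise in shControl cells was within the SE of that of CDKN1A. Its counts were 438, 333 and 509 in untreated shControl cells, then 9729, 7411 and 10035 with Cisplatin, a log2 rise of 4.42 ± 0.16 (adjusted p = 1.2e-09). In shRNF113A cells they were 636, 645 and 657, then 8307, 7912 and 8498, a rise of 3.72 ± 0.15 (adjusted p = 4.2e-09). The untreated depleted cells all lay above the untreated control cells, whereas the treated groups overlapped.

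The 3 GADD45 genes behaved in 3 different ways. GADD45A had 451, 507 and 445 normalized counts in untreated shControl cells and 5177, 8919 and 5568 with Cisplatin, replicate 2 being the high one. In shRNF113A cells it had 640, 707 and 685, then 4592, 4191 and 5242. Its rise was 14.1-fold in shControl cells (log2 3.82 ± 0.19, adjusted p = 1.3e-08) and 7.13-fold in shRNF113A cells (2.83 ± 0.18, adjusted p = 9.8e-08). GADD45B, a paralog that activates the kinase MAP3K4, had 1128, 1466 and 999 in untreated shControl cells and 1014, 1526 and 939 with Cisplatin. Those groups overlapped fully (log2 -0.035 ± 0.18, adjusted p = 0.883). In shRNF113A cells GADD45B went from 899, 933 and 844 to 1377, 1287 and 1582, without overlap (0.71 ± 0.18, adjusted p = 0.00451). GADD45G was counted at 0 to 6 reads in every library, too few to be tested at this depth.

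SFN and PLK2 shared a moderate rise and an untreated shControl library that was low. SFN had 5736, 2282 and 5557 normalized counts in untreated shControl cells and 15267, 9490 and 12787 with Cisplatin (log2 1.48 ± 0.28, adjusted p = 6.9e-04). In shRNF113A cells it went from 3630, 4406 and 4146 to 16550, 15606 and 19475 (2.13 ± 0.28, adjusted p = 4.1e-05). Without replicate 2 of both shControl groups, its depletion comparison in Cisplatin-treated cells passed the threshold (0.33, adjusted p = 0.0109), as did that in untreated cells (-0.46, adjusted p = 0.0017). PLK2 had 5740, 2956 and 5995 in untreated shControl cells and 14107, 11310 and 14620 with Cisplatin (1.46 ± 0.21, adjusted p = 7.5e-05). In shRNF113A cells PLK2 went from 3146, 2927 and 3034 to 11349, 10604 and 12376 (1.96 ± 0.21, adjusted p = 6.5e-06). In each of these genes the replicate 2 library was the lowest of its shControl group in both treatments.

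PLK3 had the fewest counts of the 7 that rose. It had 242, 213 and 242 normalized counts in untreated shControl cells and 2122, 2853 and 2201 with Cisplatin, a 10.4-fold rise (log2 3.38 ± 0.12, adjusted p = 1.3e-09). In shRNF113A cells it went from 353, 392 and 411 to 2256, 2180 and 2203, a 5.94-fold rise (2.57 ± 0.12, adjusted p = 7.2e-09). CCNG1 was already abundant and had the smallest fitted rise of the 7, from 5532, 4874 and 5480 to 12232, 9634 and 11409 in shControl cells (1.08 ± 0.11, adjusted p = 5.6e-06). In shRNF113A cells it rose from 4065, 3754 and 4880 to 8509, 9139 and 9646 (1.15 ± 0.11, adjusted p = 2.9e-06). For both genes the treated and untreated libraries did not overlap with either hairpin.

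Because counts scale with transcript length, levels were compared between genes as RPKM, exonic reads per kilobase of annotated exon scaled to the library's exonic reads. In untreated shControl cells the mean levels were 89.4 ± 36.2 (SD, n = 3) for SFN, 56.9 ± 1.53 for CCNG1, 42.6 ± 13.3 for PLK2, 38.3 ± 10.3 for CDKN1A, 18.8 ± 4.63 for GADD45B, 8.24 ± 0.993 for GADD45A, 4.11 ± 0.75 for BTG2 and 2.31 ± 0.0792 for PLK3. The libraries of SFN overlapped those of CCNG1, and those of PLK2 overlapped those of CDKN1A. The other neighbours in that order did not overlap. With Cisplatin the order of the mean levels in shControl cells became CDKN1A (861 ± 101), SFN (274 ± 57.1), CCNG1 (129 ± 12.7), PLK2 (127 ± 14.4), GADD45A (126 ± 42.8), BTG2 (95.1 ± 13.9), PLK3 (26.4 ± 5.53) and GADD45B (19.8 ± 5.85). CDKN1A and SFN stood apart from all others there, CCNG1, PLK2 and GADD45A overlapped one another, BTG2 overlapped GADD45A, and PLK3 overlapped GADD45B. CDKN1A moved from rank 1731 to rank 38 of 19548 protein-coding genes on this scale in shControl cells, and from rank 1309 to rank 91 in shRNF113A cells (mean levels 49.6 ± 1.32 and 466 ± 16.3).

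**Figure D2:**
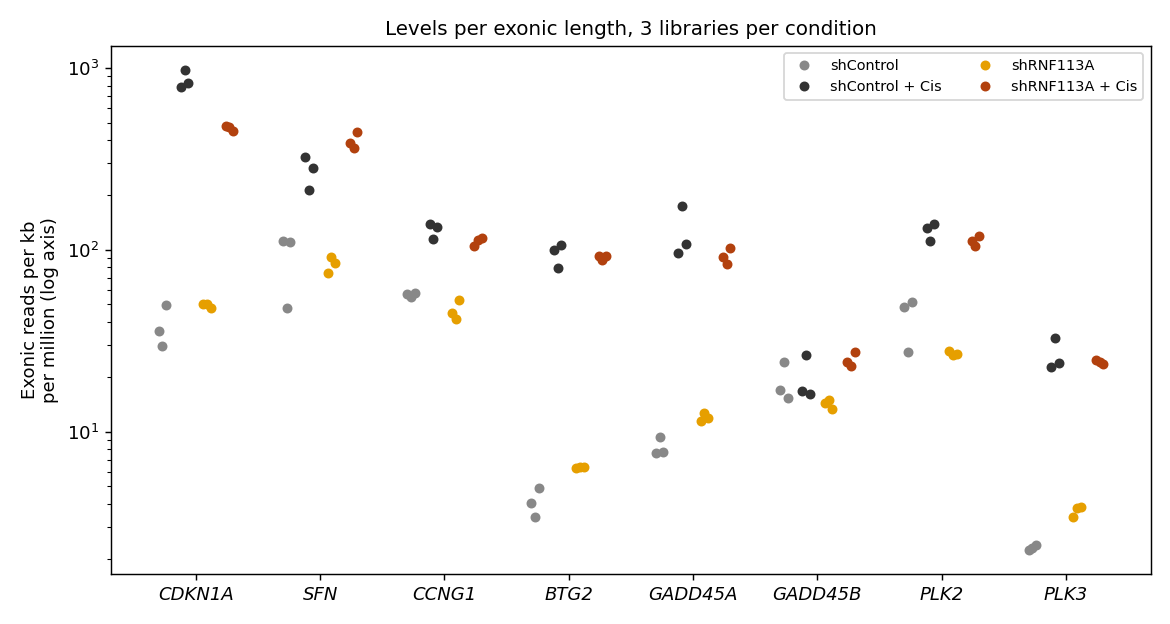
RPKM from exonic reads (log axis) of 8 members, with the 3 libraries of each condition as points; GADD45G, at or below 0.117 in all libraries, is left out. CDKN1A reaches 785 to 975 in shControl cells with Cisplatin, above every other member.

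Depletion of RNF113A changed the members much less than Cisplatin did, and in different directions. In untreated cells PLK3, BTG2 and GADD45A rose and PLK2 fell. In Cisplatin-treated cells CDKN1A and GADD45A fell and none rose. No member reached 2-fold: 0 of 8 were called in untreated cells (8.66% of all genes), 0 in Cisplatin-treated cells (12.3%) and 0 over both treatments (11%), by edgeR and by DESeq2. At an unadjusted p under 0.05 and with no limit on the fold, 7, 3 and 3 members passed. The share of all genes at that cut was not counted and is at least the share by the adjusted p, so these counts stand without a comparison. By the adjusted p alone, 4 members passed in untreated cells against 27.4% of all genes, and 2 in Cisplatin-treated cells against 42.9%. Over both treatments CCNG1 (-0.28, adjusted p = 0.00993) and PLK2 (-0.43, 0.0357) fell, where 3609 of all genes rose and 3680 fell. CCNG1 passed there whichever library was left out (0.00185 to 0.0259). PLK2 did not pass without shControl untreated replicate 1 or 3 or any untreated shRNF113A replicate (0.0692 to 0.0818). In that model CDKN1A passed without shControl untreated replicate 2 (-0.45, 0.042). PLK3 passed without shControl Cisplatin replicate 2 (0.38, 0.0173) or both shControl libraries of replicate 2 (0.33, 0.0154). The medians of the 8 members in untreated and treated cells were 0.098 and -0.14 on the log2 scale, against 0.003 and -0.007 for all genes. The Cisplatin and depletion comparisons share libraries, so their values are given side by side and not correlated.

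In untreated cells PLK3 was 1.67-fold higher with shRNF113A (log2 0.74 ± 0.12, adjusted p = 7.8e-04) and BTG2 1.53-fold higher (0.61 ± 0.14, adjusted p = 0.00814). Neither gene's groups overlapped. GADD45A was 1.46-fold higher (0.54 ± 0.18, adjusted p = 0.0403), also without overlap. That call was lost, with adjusted p of 0.0532 to 0.114, when 1 of 7 libraries was left out: shControl untreated replicate 1 or 3, any shRNF113A untreated replicate, or replicate 1 or 2 of shRNF113A with Cisplatin. PLK2 fell by 0.68 ± 0.20 on the log2 scale (adjusted p = 0.0275), and its groups overlapped through the low shControl replicate 2. Leaving out shControl replicate 1 or 3 or any shRNF113A replicate, all untreated, took its adjusted p to 0.0648 to 0.107, whereas without shControl replicate 2 it was 4.4e-05. The values of CDKN1A (0.34 ± 0.16, adjusted p = 0.124), CCNG1 (-0.31 ± 0.11, 0.0529), GADD45B (-0.42 ± 0.18, 0.106) and SFN (-0.14 ± 0.28, 0.73) missed the threshold. Among these, CDKN1A passed without shControl untreated replicate 3 (0.58, adjusted p = 0.00461), SFN without shControl untreated replicate 2 (-0.46, 0.0461), and GADD45B without shControl Cisplatin replicate 2 (-0.42, 0.0293). CCNG1 passed without shControl untreated replicate 2 (0.0308), shControl Cisplatin replicate 1 (0.046) or 2 (0.0254), or shRNF113A untreated replicate 3 (0.0206). It also passed in 7 of 9 other settings, with adjusted p of 0.00414 to 0.0819, so its call in untreated cells turned on the processing. The lowest of these was without replicate 2 of both shControl groups (-0.37), where SFN also passed (-0.46, 0.0017).

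In Cisplatin-treated cells CDKN1A fell by 0.91 ± 0.16 on the log2 scale with shRNF113A (adjusted p = 7.5e-04), to 0.534 times its level in shControl cells. It passed whichever library was left out, at -1.005 to -0.87, and without shControl Cisplatin replicate 1 it exceeded 2-fold, making 1 member called. GADD45A fell by 0.44 ± 0.17 (adjusted p = 0.0493), with overlapping groups. That result was at the edge of the threshold: it was lost, at adjusted p of 0.0527 to 0.115, without any 1 of the shRNF113A libraries, shControl untreated replicate 1 or 3, or shControl Cisplatin replicate 2, and in 4 of 9 other settings (0.0182 to 0.109 over the 9). The other members missed the threshold, from -0.24 ± 0.11 for CCNG1 (adjusted p = 0.0929, passing in 3 of 9 other settings) to 0.50 ± 0.27 for SFN (adjusted p = 0.156). BTG2 (-0.095 ± 0.13, 0.59), PLK2 (-0.18 ± 0.20, 0.494), PLK3 (-0.069 ± 0.11, 0.626) and GADD45B (0.33 ± 0.18, 0.154) lay between. Without shControl Cisplatin replicate 2, CCNG1 (-0.38, 0.0132) and GADD45B (0.53, 0.014) passed, and without shControl untreated replicate 2 SFN did (0.50, 0.0122). Without both of these libraries CDKN1A (-0.83, adjusted p = 2.9e-06), CCNG1 (-0.34, 0.0047), PLK2 (-0.29, 0.00286) and BTG2 (-0.22, 0.0102) passed below 0. GADD45B (0.57, 1.2e-04) and SFN (0.33, 0.0109) passed above 0. GADD45A (-0.16, 0.109) and PLK3 (0.072, 0.417) did not pass. That omission was chosen after seeing the data, and the share of all genes passing under it was not counted. The members passing there thus stand without a comparison.

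The interaction term asks whether the response to Cisplatin differed between the hairpins, as the ratio of the fold in shRNF113A cells to the fold in shControl cells. PLK3, GADD45A and CDKN1A had a weaker rise with shRNF113A. On the log2 scale the term was -1.25 ± 0.22 for CDKN1A (adjusted p = 0.0134), -0.99 ± 0.24 for GADD45A (adjusted p = 0.0431) and -0.81 ± 0.16 for PLK3 (adjusted p = 0.0196). CDKN1A alone was past 2-fold, so 1 of 8 members was called, against 1.28% of all genes, and 3 of 8 passed the adjusted p, against 4.25%. The term is built differently in the 3 genes. PLK3 was higher with shRNF113A before treatment and overlapped the controls after it, whereas CDKN1A overlapped before and was lower after. BTG2 pointed the same way without passing (-0.70 ± 0.20, adjusted p = 0.0643), and passed in 4 of 8 other settings (8.3e-04 to 0.0604). GADD45B (0.75 ± 0.25, 0.115), SFN (0.65 ± 0.39, 0.367), PLK2 (0.50 ± 0.29, 0.345) and CCNG1 (0.071 ± 0.16, 0.844) were above 0 and did not pass.

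CDKN1A passed the interaction test without any 1 library (-1.49 to -1.07, adjusted p at most 0.0416). PLK3 did not pass without shRNF113A untreated replicate 3 (adjusted p = 0.0537) or shRNF113A Cisplatin replicate 3 (0.0523). GADD45A did not pass, at 0.069 to 0.0952, without any 1 of the 6 shRNF113A libraries or shControl untreated replicate 1 or 3. In the other direction, BTG2 passed without shControl untreated replicate 2 (0.0483) or 3 (0.0455) or shControl Cisplatin replicate 2 (0.0162). PLK2 (0.76, 0.00941) and SFN (0.96, 0.0194) passed without shControl untreated replicate 2, and GADD45B (0.95, 0.02) without shControl Cisplatin replicate 2. The count of called members was 2 without shControl untreated replicate 2 or shControl Cisplatin replicate 1 or 3. Without replicate 2 of both shControl groups, the terms of CDKN1A (-0.99, adjusted p = 4.0e-04), GADD45A (-0.77, 0.00133), PLK3 (-0.61, 0.00296) and BTG2 (-0.68, 8.3e-04) all passed, none reached 2-fold, and those of GADD45B (0.81, 0.00116), PLK2 (0.65, 9.6e-04) and SFN (0.80, 0.00194) passed on the other side of 0. This omission was chosen after seeing the data. The share of all genes passing under it was not counted, so the members passing there stand without a comparison.

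**Figure D3:**
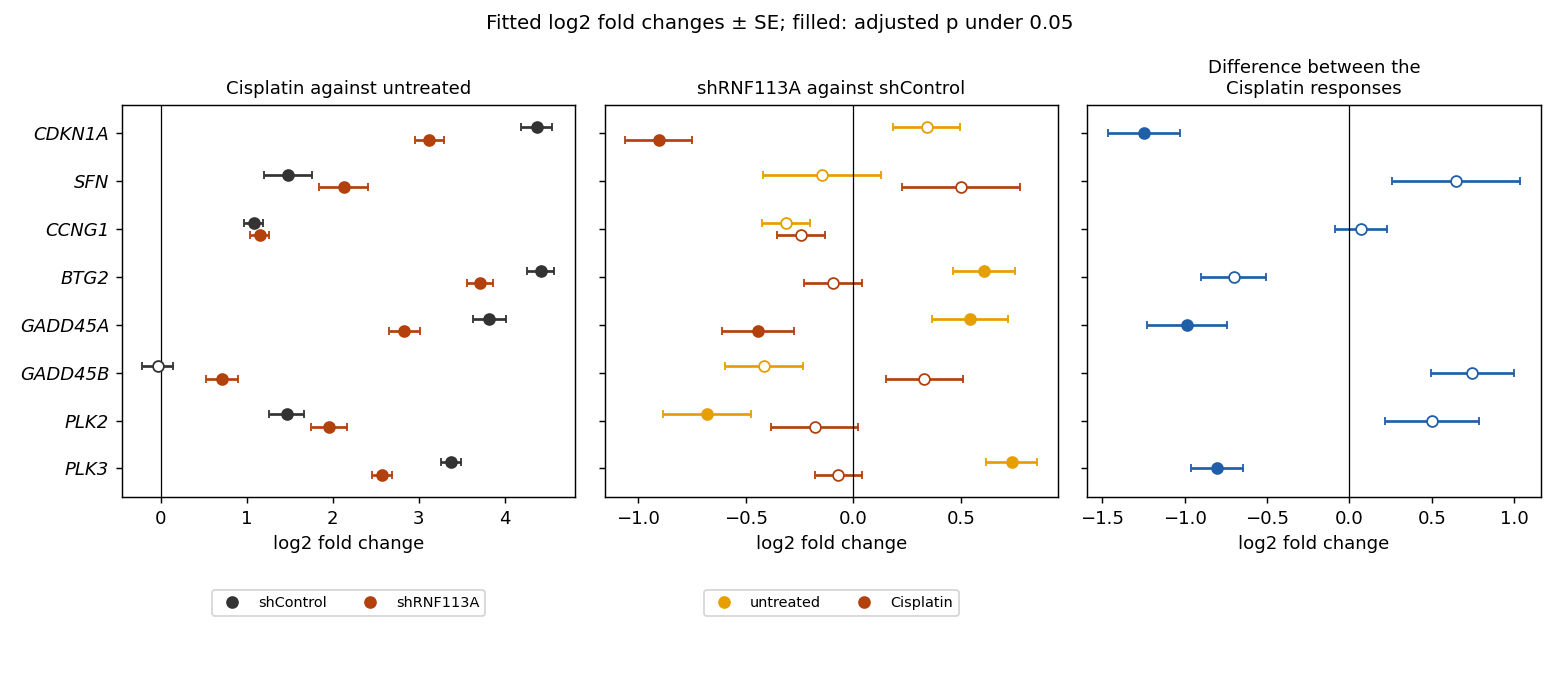
Fitted log2 fold changes with SE bars for the 8 tested members, for Cisplatin against untreated (left), shRNF113A against shControl (middle) and the difference between the Cisplatin responses (right), each from 3 libraries per condition. Filled points have an adjusted p under 0.05, as for CDKN1A, GADD45A and PLK3 in the right panel, at -1.25, -0.99 and -0.81.

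RNF113A belongs to the spliceosome, so reads in introns of the members were examined next. The intronic reads of a gene were its reads over the whole gene minus its reads lying within exons. SFN has a single exon and GADD45G too few reads, which left 7 members. In shControl cells 1.81%, 1.11% and 1.4% of CDKN1A gene reads were intronic without treatment and 1.22%, 0.951% and 1.98% with Cisplatin. In shRNF113A cells the shares were 1.71%, 2.37% and 2.01%, then 4.28%, 4.29% and 5.2% with Cisplatin. Only the last group stood apart, above all 9 other libraries. Those shares rest on 31 to 67 intronic reads in untreated shControl cells and 1482 to 1527 in treated shRNF113A cells.

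With Cisplatin, all 7 members had a higher ratio of intronic to exonic reads in shRNF113A than in shControl cells. CDKN1A had the largest change among them, 3.57-fold (log2 1.84 ± 0.23, adjusted p = 4.2e-06), followed by GADD45A (1.28 ± 0.29, adjusted p = 5.0e-04), PLK3 (1.19 ± 0.28, 7.7e-04) and GADD45B (1.18 ± 0.32, 0.00189). CCNG1 and PLK2 each changed by 1.05 and BTG2 by 0.94. Genes at large moved the same way: 79.3% of 11104 genes changed, 8791 up and 17 down, with a median of 0.97 against 1.18 for the members. The share of members is thus near that of all genes, and all 7 still passed when any 1 of the 6 libraries was left out. Replicate 3 of the treated shControl cells had the highest share of its group in each of the 7 members and over all genes (7.05%, against 5.38% and 4.57%). The treated shRNF113A libraries, at 9.76% to 10.1% over all genes, were above it.

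In untreated cells the ratio rose with shRNF113A in 5 of 7 members: GADD45A (0.94 ± 0.25, adjusted p = 0.00327), PLK3 (0.83 ± 0.25, 0.00742), CCNG1 (0.62 ± 0.20, 0.0137), PLK2 (0.57 ± 0.14, 0.00278) and CDKN1A (0.49 ± 0.20, 0.0382). Over all genes 52.4% changed. For PLK3, intronic reads made up 12.3%, 6.78% and 10.0% of gene reads in untreated shControl cells and 15.9%, 15.6% and 16.9% in untreated shRNF113A cells, the highest shares of any member. BTG2 (0.74 ± 0.36, 0.0824) and GADD45B (0.14 ± 0.26, 0.652) did not pass. CDKN1A no longer passed without shControl replicate 2 (0.0969) or 3 (0.0968), or without shRNF113A replicate 2 (0.191) or 3 (0.0661). CCNG1 did not pass without shRNF113A replicate 2 (0.111), which left 3 members, and BTG2 passed without shControl replicate 1 (1.16, 0.0224).

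Cisplatin raised the ratio in shRNF113A cells in 4 of 7 members, where 78.3% of all genes changed. These were CCNG1 (1.29 ± 0.15, adjusted p = 5.2e-10), CDKN1A (1.21 ± 0.13, 5.6e-11), GADD45B (0.64 ± 0.23, 0.0107) and PLK2 (0.33 ± 0.12, 0.00822). BTG2 (0.22 ± 0.19, 0.302), GADD45A (0.14 ± 0.15, 0.381) and PLK3 (-0.29 ± 0.15, 0.0857) did not pass. GADD45B was lost without shRNF113A untreated replicate 3 (0.0543) or shRNF113A Cisplatin replicate 1 (0.0618), and BTG2 passed without shRNF113A untreated replicate 2 (0.53, 0.0351). In shControl cells 0 of 7 members passed, against 9.15% of all genes. At an unadjusted p under 0.05, where the share of all genes was not counted, 1 member passed. That gene was CCNG1 (0.86 ± 0.29, adjusted p = 0.0671), which passed with the replicate number as a block (0.87, adjusted p = 0.0059) and without shControl Cisplatin replicate 2 (1.07, 7.2e-04). Whether the 2 Cisplatin responses of this ratio differ was not tested.

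**Figure D4:**
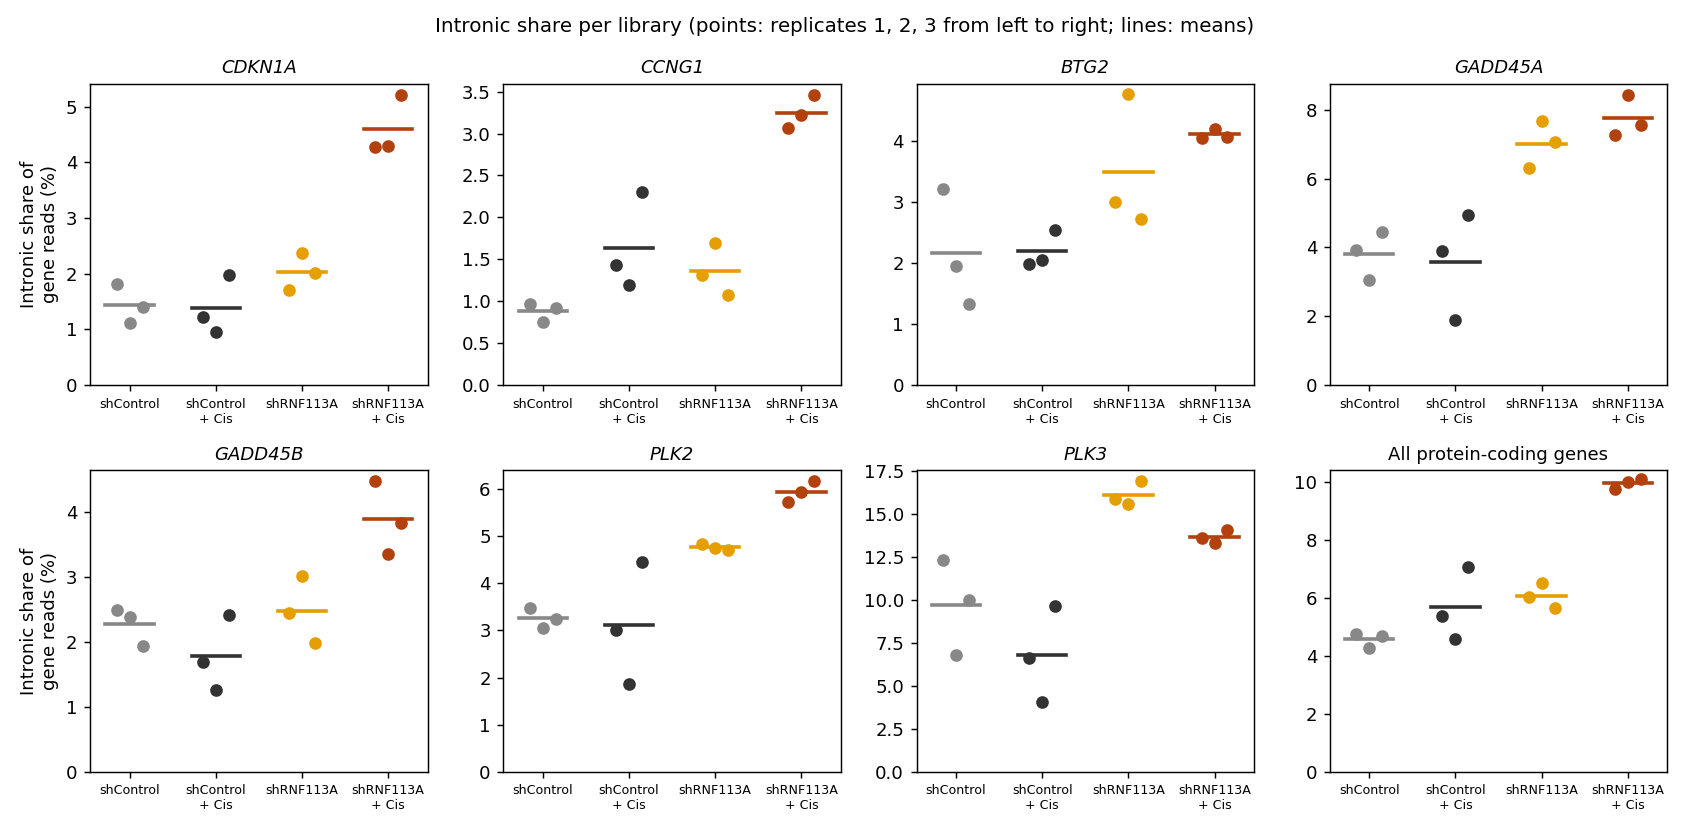
Share of each gene's reads that were intronic (%), per library, for 7 members and for all protein-coding genes, with 3 replicates per condition as points and their means as lines. Shares of CDKN1A are 4.28% to 5.2% in treated shRNF113A cells and at most 2.37% in the other 9 libraries, and over all genes the treated shRNF113A libraries are at 9.76% to 10.1%.

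Single splicing events were tested from the deposited reads of each form, with the inclusion level as the length-corrected share of the including form. The calling rule asked for an adjusted p under 0.05 and for group means of the inclusion level that differ by 0.2 or more. No member event was called in any of the 4 comparisons. With Cisplatin in shControl cells 0 of 18 tested retained introns and skipped exons of members were called, where 0.087% of all tested introns and 0.0576% of all exons were. With Cisplatin in shRNF113A cells it was 0 of 25 (1.12% and 0.262%), with depletion in untreated cells 0 of 16 (0.99% and 0.0134%), and with depletion in treated cells 0 of 28 (2.37% and 0.0569%). At an unadjusted p under 0.05 and with no limit on the level, edgeR gave 1, 4, 1 and 7 member events. Of these 0 were past the limit in each comparison, and the share of all events at that cut was not counted. By the adjusted p alone, 0 of 4 retained introns of members passed with Cisplatin in shControl cells (0.493% of all introns) and 0 of 5 with depletion in untreated cells (17.4%). With Cisplatin in shRNF113A cells 1 of 5 passed (15.7%), and with depletion in treated cells 3 of 4 (26%).

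These introns lie in PLK3 and PLK2, and they were named after their values were seen. They are shown whole because they are the introns that changed, 5′ to 3′ on the gene's strand in GRCh37, with the terminal splice-site bases in capitals. PLK3 is on the plus strand of chromosome 1 and PLK2 on the minus strand of chromosome 5. The introns, at chr1:45268826-45268939, chr1:45270174-45270321 and chr5:57753999-57754225, are 114, 148 and 227 bases long.
PLK3, 114 bases: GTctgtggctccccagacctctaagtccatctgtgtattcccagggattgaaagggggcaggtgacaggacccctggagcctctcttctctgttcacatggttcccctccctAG
PLK3, 148 bases: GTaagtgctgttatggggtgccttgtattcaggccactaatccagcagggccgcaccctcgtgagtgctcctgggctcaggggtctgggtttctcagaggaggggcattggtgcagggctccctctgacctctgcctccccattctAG
PLK2, 227 bases: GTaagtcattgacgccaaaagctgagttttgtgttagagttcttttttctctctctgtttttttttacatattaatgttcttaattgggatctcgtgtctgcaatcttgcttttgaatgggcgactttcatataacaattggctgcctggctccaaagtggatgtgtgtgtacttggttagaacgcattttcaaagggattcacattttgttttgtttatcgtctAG

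All 3 introns were shorter than the median of 256 bases over 4360 introns in the retained-intron table, and all had the GT and AG ends that 98.7% of those introns have. The GC contents were 57% and 60.1% in PLK3 and 37% in PLK2, against a median of 57%. The order of the libraries within a condition is not named in these tables, so they are called a, b and c. The 148-base PLK3 intron was included at 2.89%, 1.82% and 3.85% in treated shControl cells and at 10.0%, 11% and 7.95% in treated shRNF113A cells (difference 6.82 points, adjusted p = 4.7e-04). The including form had 17 to 34 reads and 33 to 50 reads. The groups did not overlap. For the 114-base PLK3 intron the levels were 5.31%, 1.57% and 4.74% against 8.82%, 9.39% and 8.61% (5.07 points, adjusted p = 0.0135). That intron was also the 1 that rose with Cisplatin in shRNF113A cells, from 0%, 1.95% and 5.24% (6.55 points, adjusted p = 0.0395). Those untreated levels rest on 0, 2 and 4 reads of its including form, against 29, 30 and 28 with Cisplatin. The PLK2 intron was included at 1.46%, 1.21% and 1.79% against 2.96%, 2.29% and 3.31% (1.37 points, adjusted p = 0.0226). These differences are below the limit, and the spliced form made up most reads in every library.

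Among skipped exons, 1 of 24 member events tested with depletion in treated cells passed the adjusted p, against 0.721% of all exons. It was the 264-base exon of CCNG1 at chr5:162866263-162866526, whose inclusion went from a mean of 99.9% to 98.7% (adjusted p = 0.0383). The skipping form had 1, 0 and 2 reads in treated shControl cells and 5, 7 and 9 in treated shRNF113A cells. A second event in the table for the same exon, with other flanking exons, was at 99.9% and 100% with 1 and 0 skipping reads in all (adjusted p = 0.709) and did not show this difference. In CDKN1A the tested exon, of 91 bases, was rarely used in any condition, at a mean of 0.749% in treated shControl and 0.683% in treated shRNF113A cells (adjusted p = 0.875).

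The genes around the members were described from fixed lists. Of all 15352 genes tested, 4298 rose and 4152 fell with Cisplatin in shControl cells, with a median of -0.005. In shRNF113A cells 4974 rose and 4268 fell, with a median of 0.056. In these comparisons 19.8% and 23.1% of all genes were called. Of 30 other p53 targets, 30 rose with Cisplatin in shControl cells and 30 in shRNF113A cells, all of them called, with medians of 2.27 and 1.86. These were chosen as known targets, with results of these data known, and their count is no independent support. TP53INP1, a stress protein of autophagy and apoptosis, rose by 4.34 ± 0.13 in shControl cells, and BAX, the pore-forming effector of apoptosis, by 1.43 ± 0.10. With depletion in treated cells 17 of the 30 fell and 0 rose, where 3348 of all genes fell and 3238 rose. In the interaction test 7 passed below 0, 0 passed above 0 and 23 did not pass. Over all genes 348 passed below 0 and 304 above 0. Among the 7 was TP53I3, an oxidoreductase (-0.71 ± 0.10, adjusted p = 0.00856).

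Of 25 genes of DNA replication and mitosis, 22 fell with Cisplatin in shControl cells and 23 in shRNF113A cells, and 0 rose. The medians were -0.82 and -0.81, and 4152 and 4268 of all 15352 genes fell. MCM6, a subunit of the replicative helicase, fell by 2.27 ± 0.16 in shControl cells (adjusted p = 2.0e-07). No gene of that list passed the interaction test. Among the proteins that the members bind, 8 of 12 tested fell with Cisplatin in shControl cells and 1 rose, where 55% of all genes changed. The 1 that rose was PCNA, the sliding clamp of DNA replication that p21 and GADD45A bind (0.63 ± 0.14, adjusted p = 0.00197). CCNA2, cyclin A2, fell by 1.19 ± 0.13 (adjusted p = 1.0e-05), and CCND1, cyclin D1, was at -0.11 ± 0.27 (adjusted p = 0.746). Of the 12 bound proteins tested, 4 fell and 3 rose with Cisplatin in shRNF113A cells, where 60.2% of all genes changed.

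Of 4 other inhibitors of cyclin-dependent kinases tested, 0 rose and 1 fell with Cisplatin in shControl cells, where 55% of all genes changed. In shRNF113A cells 1 rose and 1 fell, against 60.2% of all genes. CDKN2C, which encodes p18, fell by 1.52 ± 0.11 in shControl cells (adjusted p = 2.4e-07), while CDKN1B, which encodes p27, was at -0.14 ± 0.14 (adjusted p = 0.413). Of 13 paralogs of the members, 5 rose and 7 fell with Cisplatin in shControl cells, where 55% of all genes changed. None of the 5 rose by 2-fold. TOB2, of the BTG family, rose by 0.93 ± 0.12 (adjusted p = 4.8e-05), and PLK1, the mitotic polo kinase, fell by 1.59 ± 0.10 (adjusted p = 1.0e-07), opposite to PLK2 and PLK3. Of the 13 paralogs, 2 rose and 6 fell with Cisplatin in shRNF113A cells, where 60.2% of all genes changed. Of 10 transcriptional regulators of the members, 6 rose in shControl cells and 0 fell, where 4298 of all 15352 genes rose and 4152 fell. ATF3, a stress-induced factor, rose by 4.01 ± 0.30 (adjusted p = 3.2e-07) and by 3.70 ± 0.29 in shRNF113A cells (adjusted p = 5.4e-07). Of the 10 regulators, 3 rose and 3 fell with Cisplatin in shRNF113A cells, where 4974 of all genes rose and 4268 fell.

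The genes whose profile over the 12 libraries was most like a member's were found by Pearson's r of log2 CPM, as a description in which all points share the 4 conditions. For BTG2 they were FAS (r = 0.999), a death receptor and p53 target, and ACER2 (0.997). For CDKN1A they were MTO1 (0.997) and ZNF79 (0.996), for GADD45A SUSD6 and KANK3 (0.996 each), for PLK3 RNF19B (0.998) and SERTAD1 (0.997) and for PLK2 FAM131C (0.995) and TNIP1 (0.991). CCNG1 was closest to RPS27L (0.992) and FAM210B (0.987), and SFN to ALOXE3 (0.988) and IER5 (0.986). GADD45B, the member with the smallest change, had the lowest values, with DHRS11 (0.921) and RAB32 (0.917). Between members, r was 0.984 for CDKN1A and BTG2 and 0.386 for CDKN1A and GADD45B.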

How the data were processed

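The members and gene lists were chosen with earlier results of these data known. Poly(A) RNA of A549 cells was sequenced as stranded read pairs. The authors deposited raw read counts per gene (STAR 2.5.2b, hg19) and counts of reads in genes and in exons (HTSeq, Gencode 19). They also deposited tables of splicing events from rMATS, holding reads per form (unit other here: comma-separated counts). Their columns of p-values and level differences were not used, nor were the events of 3 other categories. Strand-specific gene counts were fitted with edgeR 4.0.16 (TMM, filterByExpr, quasi-likelihood test, all 12 libraries, terms for the 4 conditions, and an additive model for effects over both). Normalized counts use DESeq2 1.42.0 size factors. Adjusted p-values are Benjamini-Hochberg over all genes. Ratios of intronic to exonic reads, and of splicing forms, were tested in edgeR over the 6 libraries compared, with a term per library. Intronic tests needed a mean of 10 intronic reads, and events 10 reads per library. Scripts were tested on simulated data. Named genes were all members, up to 4 extremes per list, RNF113A, the 2 nearest profiles, and the splicing events with most reads, as none was called. Events past the adjusted p alone were added after their values were seen. Same-numbered shControl libraries deviated together from their group means (r = 0.632, 0.731 and 0.48 over 9779 genes), so by the rule that each same-numbered pair exceeds 0.1 these numbers were taken as pairs. The main tests held no term for these pairs, and a replicate block was run as another setting. Replicate 2 stood against the others, and replicates 1 and 3 crossed correlated as highly (0.585 and 0.533), so the data do not tell 1 from 3. In shRNF113A cells (0.406, -0.065 and 0.299) and between hairpins the rule was not met. On the opposite strand, tested members had at most 1.77% of reads.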

Additional observations from a re-analysis of the deposited data

Results flagged for a closer look

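The response to Cisplatin differed between hairpins in 3 members by the test of the difference itself: CDKN1A (log2 -1.25), GADD45A (-0.99) and PLK3 (-0.81), each a smaller rise in shRNF113A than in shControl cells. The adjusted p-values were 0.0134, 0.0431 and 0.0196, and 4.25% of all genes passed that test. With 1 of the 12 libraries left out, CDKN1A always passed, GADD45A did not pass in 8 omissions and PLK3 did not in 2. Groups of 3 libraries are too small to test for a single deviating library.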

How the results depend on the processing

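With 3 libraries a condition, small differences between hairpins depend on single libraries. Among the results on single members, 530 values under other settings kept their direction and their side of the threshold, 28 came to pass it, 7 no longer did and 7 changed sign. With 1 library left out these were 746, 24, 43 and 27. The causes were not tested. Each Cisplatin comparison had 7 members called under all settings, except 8 in shRNF113A cells with no limit on the fold. The replicate block left 7 members called for Cisplatin in shControl cells and, for the intronic ratio there, gave 1 member that passed (CCNG1) against 0. Between hairpins, where the numbers do not pair the libraries, CCNG1 passed with the block for depletion in untreated (-0.32, adjusted p = 0.0217) and treated cells (-0.24, 0.0496), BTG2 in the interaction (-0.71, 0.0265), and the intronic ratio of CDKN1A for depletion in untreated cells no longer did (0.49, 0.066). The block changed no other call. Leaving out both shControl libraries of replicate 2, chosen after seeing the data, also gave 1 there, and 0 members called in the interaction. That count was 2 with unstranded counts, median-ratio size factors, no low-count filter or DESeq2, and 1 to 2 with 1 library left out. With no limit on the fold, 4, 2, 3 and 2 members passed for depletion in untreated cells, in treated cells, the interaction and depletion over both treatments. Depletion in treated cells gave 0 to 1 called with 1 library left out. The intronic ratio gave 3 members for depletion in untreated cells with at least 50 intronic reads and 3 to 6 with 1 library left out, and 0 to 1 for Cisplatin in shControl cells. With no limit on the inclusion level, 1 splicing event passed for Cisplatin in shRNF113A cells and 4 for depletion in treated cells. Values that changed sign, all small on the log2 scale, were these. GADD45B with Cisplatin in shControl cells was 0.063 by library size and -0.277 to 0.141 with 1 library left out. GADD45A with depletion over both treatments was -0.001 by median-ratio size factors and -0.055 to 0.179 with 1 left out. Without both replicate 2 libraries, PLK3 with depletion in treated cells was 0.072, GADD45B and SFN with depletion over both treatments 0.161 and -0.07, and the intronic ratios of GADD45A and PLK2 with Cisplatin in shControl cells 0.064 and 0.135. With 1 left out, depletion ranged from -0.204 to 0.027 for PLK3 in treated cells, -0.463 to 0.06 for SFN in untreated cells, and -0.173 to 0.076 for GADD45B over both, where SFN reached 0.305. The CCNG1 interaction ranged from -0.064 to 0.181. The intronic ratio with Cisplatin in shControl cells ranged from -0.431 to 0.114 for CDKN1A, -0.275 to 0.44 for BTG2, -0.497 to 0.221 for GADD45A and -0.462 to 0.177 for PLK2, and with depletion in untreated cells from -0.034 to 0.267 for GADD45B. GADD45G, at 0 to 6 reads, could not be tested at this depth. No paired analysis was possible for splicing events because the tables do not name their libraries.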
